A study of Homo sapiens with 2 samples.

Results

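The 6 genes described here, LSM5, AVL9, KBTBD2, NT5C3A, RP9 and BBS9, flank FKBP9 on the short arm of chromosome 7 and were taken by symbol from the 58735 genes of the deposited table. Each symbol matched 1 row on chromosome 7, and all 6 genes reached at least 1 FPKM in both libraries, where FPKM is fragments scaled by the length of the gene and by the size of the library. They serve as a local control for the knockdown of FKBP9. SF-539 cells, an established human GBM line cultured in DMEM with serum, were infected with the lentiviral vector pGIPZ-CTRL (shControl) or with lentivirus carrying an shRNA against FKBP9 (shFKBP9), and stable clones were taken by puromycin selection. How many clones each population held is not given in the sources used here. Both populations therefore carried a lentiviral vector and the same selection, and which of the shRNAs against FKBP9 was used is not given in the sources used here. RNA of each population was sequenced as 1 library, so no difference between the conditions has a replicate check and no p-value is given.

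An shRNA is processed into a small guide RNA that directs cleavage or decay of transcripts with a matching sequence, whereas the gene itself and the chromatin around it are not its target. Genes that sit beside the target on the chromosome share its local environment and its copy number but not its transcript. FKBP9 encodes a peptidyl-prolyl isomerase of the endoplasmic reticulum. Its neighbors have unrelated roles. LSM5 belongs to the Sm-like rings that bind U6 snRNA in the nucleus and promote mRNA decay in the cytoplasm. KBTBD2 is a substrate adaptor of CUL3 ubiquitin ligases that acts on PIK3R1, the regulatory subunit of PI3K. NT5C3A is a nucleotidase that dephosphorylates pyrimidine monophosphates. RP9 is a nuclear protein linked to pre-mRNA splicing and mutated in a form of retinitis pigmentosa. BBS9 is a subunit of the BBSome, the coat complex that moves membrane proteins in cilia, and AVL9 has been associated with cell migration and late secretory traffic.

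The coordinates of the file are those of hg38. FKBP9 (ENSG00000122642) ran from 32957404 to 33006931 on the plus strand of chromosome 7. On its upstream side lay LSM5 (ENSG00000106355, 32485332 to 32495283, minus strand), AVL9 (ENSG00000105778, 32495426 to 32588721, plus strand) and KBTBD2 (ENSG00000170852, 32868172 to 32894131, minus strand). On its downstream side lay NT5C3A (ENSG00000122643, 33014113 to 33062797, minus strand), RP9 (ENSG00000164610, 33094797 to 33109401, minus strand) and BBS9 (ENSG00000122507, 33129244 to 33606068, plus strand). Distances are between the lower coordinates that the file gives as gene starts, which for a gene on the minus strand is its 3′ end. They were 472, 462 and 89.2 kb from FKBP9 on the upstream side and 56.7, 137 and 172 kb on the downstream side. NT5C3A and FKBP9 converged, with 7181 bases between their ends. In GENCODE release 44 the canonical transcripts had 5 exons for LSM5, 16 for AVL9, 4 for KBTBD2, 9 for NT5C3A, 6 for RP9 and 23 for BBS9.

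Both LSM5 with AVL9 and RP9 with BBS9 lie head to head, with transcription leading away from the stretch between them. LSM5 and AVL9 had 142 bases between their bounds. RP9 and BBS9 had 19842 bases between them in the deposited file but 151 in GENCODE release 44, where BBS9 starts at 33109557 and ends at 33877180. The stretches between the bounds are shown because each lies upstream of both genes of a pair, and because the genes of each pair can be compared with each other below. Both are given on the plus strand of hg38, and capitals mark GGGCGG on either strand, the core of the GC box bound by SP factors.
LSM5 to AVL9, chr7:32495284-32495425: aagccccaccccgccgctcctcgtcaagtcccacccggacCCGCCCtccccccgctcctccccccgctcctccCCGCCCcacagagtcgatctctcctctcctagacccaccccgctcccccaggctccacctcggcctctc
RP9 to BBS9, chr7:33109406-33109556: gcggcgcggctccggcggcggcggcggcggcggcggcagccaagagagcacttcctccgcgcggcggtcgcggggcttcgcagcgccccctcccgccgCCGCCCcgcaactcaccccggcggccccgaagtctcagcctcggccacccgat

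G and C made up 73.9% of the first stretch and 81.5% of the second, and neither held CCAAT or TATAAA on either strand. In the RefSeq promoter windows of GRCh38.p14, each 300 bases long, 45.0% of 35116 windows held GGGCGG, 34.6% held CCAAT and 11.5% held TATAAA, both strands counted. GGGCGG occurred 4 or more times in 9.06% of the windows, and their median share of G and C was 58.7%. The windows of FKBP9, AVL9 and RP9 held GGGCGG 4, 5 and 1 times. Of the 2 windows of LSM5, the one that overlaps that of AVL9 by 295 bases held it 4 times and the other 0 times. Of the 2 windows of NT5C3A, the more upstream held it 3 times and the other 1 time. CCAAT was found 1 time each in the window of FKBP9 and in the LSM5 window without GGGCGG, and TATAAA 1 time in the second NT5C3A window. KBTBD2 and BBS9 had no entry.

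The libraries were of similar depth. Fragments on genes numbered 18116873 in shControl and 17158514 in shFKBP9, and they could be recovered for every gene because all values above 0, multiplied by gene length, were whole multiples of 1 step within 1e-06. The labels call the cells epithelial glioma cells. They had EGFR at 12.6 and 12.7 FPKM and NES at 2.36 and 2.17. PDGFRA was at 1.46 FPKM from 257 fragments in shControl and 0.976 from 163 in shFKBP9, whereas GFAP, OLIG2, SOX2 and S100B were each under 1 FPKM in both libraries. Of 5 epithelial genes, KRT8 was at 1.28 and 1.09 FPKM, whereas EPCAM, CDH1, KRT18 and KRT19 were under 1, so these genes do not bear out the name epithelial. The 4 mesenchymal genes VIM, FN1, CD44 and COL1A1 summed to 1468 and 1541 FPKM. Of the 3 leukocyte, 2 endothelial and 2 oligodendrocyte markers 0 reached 1 FPKM, with PTPRC, AIF1 and MOG at 0, and of the 2 neuronal markers SNAP25 did, at 4.98 and 5.76 FPKM.

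FKBP9 was low in the library labelled shFKBP9. It gave 4659 fragments and 49.8 FPKM in shControl, against 415 fragments and 4.68 FPKM in shFKBP9, a log2 ratio of -3.38 (95% interval -3.56 to -3.27). Every log2 ratio sets shFKBP9 over shControl after an addition of 0.1 to each FPKM. The intervals were made from the fragments by the exact Clopper-Pearson method, without the addition, and cover counting error only. In RNA of a whole population, an unequal mix of cells and an unequal level per cell cannot be told apart.

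The 6 flanking genes had levels in shFKBP9 between 83.5% (RP9) and 125% (BBS9) of those in shControl, against 9.39% for FKBP9. Together they held 4000 fragments in shControl and 4038 in shFKBP9, and their summed FPKM was 37.2 and 39.6, a log2 ratio of 0.09. The 95% interval of 0.03 to 0.15 is that of the summed fragments, which are not weighted by gene length. Of the 6 genes, 0 passed 2-fold in either direction, against 4.21% of the 12741 genes that reached 1 FPKM in at least 1 library (2.02% higher and 2.19% lower). A smaller difference, over 25% of the lower value, was likewise reached by 0 of the 6 genes, against 20.9% of those genes (9.83% higher and 11.1% lower). BBS9, at 1.248 times its shControl FPKM, fell just short of it. Since each of the 6 genes held over 400 fragments in both libraries together, they were also set beside the 9061 genes with at least that many. Of these, 0.121% passed 2-fold (0.0773% higher and 0.0441% lower) and 9.65% differed by over 25% (4.66% higher and 4.99% lower).

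**Figure D1:**
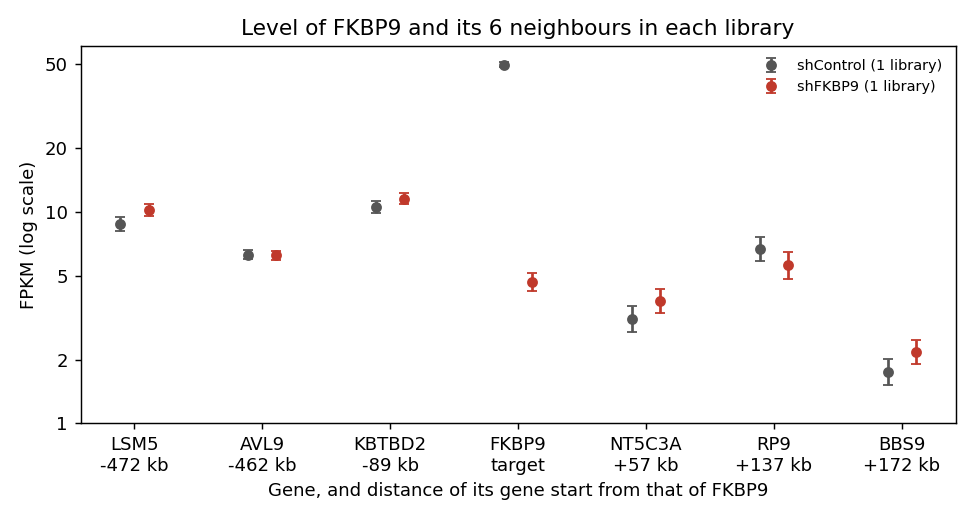
FPKM on a log axis of FKBP9 and its 6 neighbors in the shControl library (gray) and the shFKBP9 library (red), ordered by the distance of the gene start from that of FKBP9. Points are the values of single libraries and bars are exact 95% Poisson intervals of the fragments; FKBP9 is at 49.8 and 4.68, while the neighbors lie between 83.5% and 125% of their shControl level in shFKBP9.

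Upstream of FKBP9, LSM5 gave 747 fragments and 8.78 FPKM in shControl, and 826 fragments and 10.2 FPKM in shFKBP9. Its log2 ratio was 0.22 (95% interval 0.08 to 0.37), so the level was slightly higher in shFKBP9 beyond counting error. AVL9, its head-to-head partner and the member with the most fragments, had 6.28 FPKM from 1678 fragments and 6.24 from 1580. Its log2 ratio was -0.01 (-0.11 to 0.09), the closest to 0 of the 6, and its sign turned with median scaling. KBTBD2 had 10.5 FPKM from 951 fragments in shControl and 11.6 from 991 in shFKBP9. Its log2 ratio was 0.13 (0.01 to 0.27), with a lower bound of 0.0064.

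Downstream of FKBP9, NT5C3A had 3.13 FPKM from 198 fragments in shControl and 3.78 from 227 in shFKBP9. Its 3′ end lies 7181 bases from that of FKBP9, the smallest gap of the 6, and its log2 ratio was 0.27 (-0.01 to 0.56), on the other side of 0 from that of the target. RP9 had 6.69 FPKM from 230 fragments and 5.59 from 182. It was the member with the lowest log2 ratio, -0.26 (-0.55 to 0.03), and its interval included 0. BBS9, the least abundant member, had 1.75 FPKM from 196 fragments and 2.18 from 232. Its log2 ratio was 0.30 (0.04 to 0.60), the highest of the 6.

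The intervals of 3 genes, LSM5, KBTBD2 and BBS9, lay above 0 and those of 0 genes lay below it. Intervals lay above 0 for 17.2% and below 0 for 20.8% of the genes with at least 1 FPKM, and for 21.4% and 25.7% of those with at least 400 fragments, 47% in all. The number above 0 depended on the scaling, with 4 genes under median scaling, which adds NT5C3A, and 2 under TPM, which drops KBTBD2. Over all 6 intervals the lowest bound was -0.55, that of RP9, and the highest was 0.60, that of BBS9, so by counting error alone every interval excluded a 2-fold difference in either direction. The width of the interval was 0.20 for AVL9 and between 0.56 and 0.58 for NT5C3A, RP9 and BBS9, which had 412 to 428 fragments in both libraries together.

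**Figure D2:**
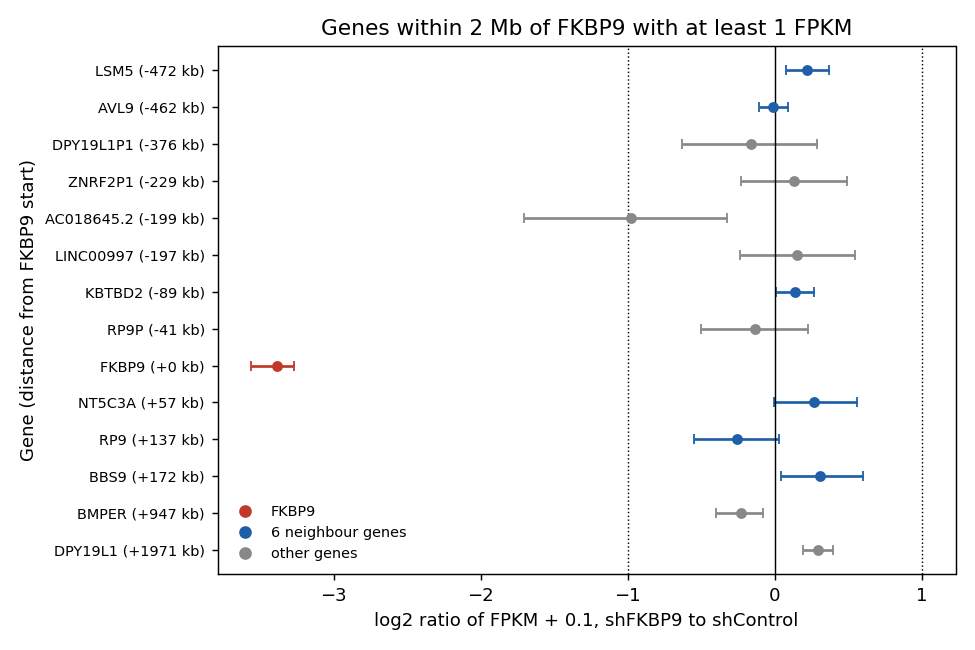
Log2 ratio of FPKM + 0.1 in shFKBP9 to shControl for the genes within 2 Mb of FKBP9 that had at least 1 FPKM in either library and more than 3 fragments, in the order of the chromosome. Bars are exact 95% intervals of the fragments and dotted lines mark 2-fold; FKBP9 (red) is at -3.38, the 6 neighbors (blue) lie between -0.26 and 0.30, and AC018645.2 is at -0.98.

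The 6 genes had a median log2 ratio of 0.18, with 4 of them above and 2 below 0. The median was -0.02 over all genes with at least 1 FPKM, with an interquartile range of -0.17 to 0.14, and -0.01 over the genes with at least 400 fragments, with a range of -0.13 to 0.12. In the latter, AVL9 lay at percentile 50.8 and KBTBD2 at 78.3. LSM5, NT5C3A and BBS9 lay at percentiles 88.5, 92.3 and 94.4, and RP9 at 8.99. The median absolute log2 ratio was 0.24 for the 6 genes and 0.13 for the genes with at least 400 fragments. The latter were not matched to the 6 genes in depth. NT5C3A, RP9 and BBS9, with 425, 412 and 428 fragments, lay just above that minimum, where counting error spreads log2 ratios more.

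A ratio within a library needs no scaling between libraries. The FPKM of FKBP9 was 1.34 times the summed FPKM of the 6 neighbors in shControl and 0.118 times in shFKBP9, a log2 change of -3.50. The 95% interval of -3.66 to -3.34 is that of the fragments of FKBP9 against the summed fragments of the 6 genes, not weighted by gene length. Against single neighbors the log2 change ran from -3.15 with RP9 to -3.73 with BBS9. FKBP9 was the most abundant gene of the set in shControl, at 4.73 times KBTBD2, and stood in shFKBP9 between RP9, at 0.837 times its FPKM, and NT5C3A, at 1.24 times.

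The order of the neighbors by FPKM was nearly the same in both libraries. In shControl KBTBD2 came first, at 1.20 times LSM5 (95% interval 1.09 to 1.32), and LSM5 was at 1.31 times RP9 (1.13 to 1.53). RP9 and AVL9 did not differ beyond counting error (ratio 1.07, 0.924 to 1.22). AVL9 was at 2.01 times NT5C3A (1.73 to 2.34), and NT5C3A was at 1.79 times BBS9 (1.46 to 2.19). In shFKBP9 AVL9 stood above RP9, again within counting error (ratio 1.12, 0.957 to 1.31). Per length of the canonical transcript in place of the gene length of the file, LSM5 came before KBTBD2 in both libraries, at 18.6 and 14.6 FPKM in shControl, because its canonical transcript has 2214 of the 4701 bases given for the gene.

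The genes of each head-to-head pair differed in their log2 ratios beyond counting error. LSM5 exceeded AVL9 by 0.23 (95% interval 0.06 to 0.41). RP9 was below BBS9 by a difference of -0.58 (-0.99 to -0.18), the largest among the 6 genes. Of the 15 pairs that can be made of them, 6 had an interval of the difference that excluded 0, and 4 of these included RP9. The intervals were not adjusted for the number of pairs, and the share of such pairs among other genes was not computed. For single genes with at least 400 fragments, 47% of intervals excluded 0, but that is another measure than a difference between genes. The count of pairs thus has no matching background and is not read as a result about these genes.

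RP9, NT5C3A and FKBP9 have pseudogene copies with which they share part of their sequence. RP9P, an unprocessed pseudogene of RP9, lies 40.6 kb upstream of FKBP9 by the same measure, between KBTBD2 and the target. It had 5.32 FPKM from 138 fragments in shControl and 4.84 from 119 in shFKBP9 (log2 ratio -0.13, 95% interval -0.50 to 0.23). Of the 6033 distinct 100-base windows over all GENCODE release 44 transcripts of RP9, 228 (3.78%) occur unchanged in RP9P. The canonical transcript of RP9 has only 1135 bases, so the share of it that matches RP9P could be larger, and was not computed. How fragments matching both were counted is not given in the sources used here. Summed with RP9P, the log2 ratio of RP9 was -0.20 (-0.44 to 0.01). Counted over all transcripts in the same way, NT5C3A shares 2.53% of its windows with NT5C3AP1 on chromosome 4, which had 5 and 4 fragments. FKBP9 shares 9.61% with FKBP9P1, which had 14 and 6. LSM5, AVL9, KBTBD2 and BBS9 shared 0% with any other gene of GENCODE release 44.

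The 6 genes were then placed among all genes around FKBP9. Within 2 Mb the file lists 52 other genes, of which 21 had a fragment and 14 reached 1 FPKM in either library. The 8 genes beside the 6 members among these 14 were 4 noncoding or pseudogene transcripts between AVL9 and KBTBD2, RP9P, BMPER, RNU6-438P and DPY19L1. Only RNU6-438P, a U6 pseudogene listed at 0 fragments in shControl and 2 in shFKBP9, passed 2-fold, and it is under the floor of 3 fragments in both libraries.

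BMPER, which encodes a secreted modulator of BMP signaling, lies 947 kb downstream of FKBP9. It had 4.98 FPKM from 714 fragments in shControl and 4.22 from 574 in shFKBP9 (log2 ratio -0.23, 95% interval -0.40 to -0.08). DPY19L1, a C-mannosyltransferase gene 1971 kb downstream, had 13.1 FPKM from 1485 fragments and 16.0 from 1727 (0.29, 0.19 to 0.40). BMPER was thus lower and DPY19L1 higher beyond counting error, by less than 25% of the lower value each.

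In the interval between AVL9 and KBTBD2, DPY19L1P1 had 89 fragments in shControl and 75 in shFKBP9, with a log2 ratio of -0.16. It overlaps the 3′ end of AVL9 on the other strand, and the counting is not stated to use strand. ZNRF2P1 had 130 and 135 fragments, with a log2 ratio of 0.13, and LINC00997 had 109 and 115, with 0.15. The lincRNA AC018645.2, 199 kb upstream of FKBP9, had 6.90 FPKM from 59 fragments in shControl and 3.46 from 28 in shFKBP9. Its log2 ratio of -0.98 (95% interval -1.70 to -0.33) was the lowest after FKBP9 among these genes, just short of 2-fold, and it passed 2-fold under TPM. LINC00997, the next gene on the same strand, was above it by a difference of 1.15 (0.36 to 1.96). ZNRF2P1, AC018645.2 and LINC00997 all lie on the strand opposite to DPY19L1P1 and overlap its bounds, LINC00997 only in part. Whether their exons overlap was not tested.

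**Figure D3:**
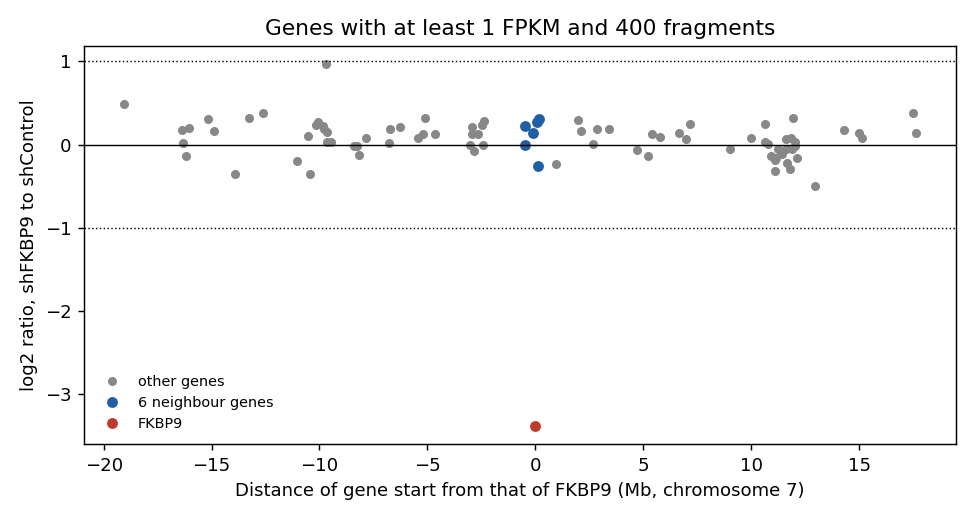
Log2 ratio of FPKM + 0.1 in shFKBP9 to shControl against the distance of the gene start from that of FKBP9 in Mb, for genes of chromosome 7 with at least 1 FPKM and 400 fragments. FKBP9 (red) is at -3.38, and the 6 neighbors (blue) and all other genes within 20 Mb (gray) lie between the dotted lines at 2-fold.

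Farther out, the genes with at least 400 fragments were more often slightly higher than lower in shFKBP9. Within 10 Mb of FKBP9 they numbered 46, of which 35 (76.1%) had a log2 ratio above 0, against 46.9% of all 9061 such genes. Their median log2 ratio was 0.12, and without the 6 members it was also 0.12, with 31 of 40 above 0. Without the minimum of 400 fragments, the median over the 73 genes within 10 Mb that reached 1 FPKM was 0.08, against -0.02 over all genes at 1 FPKM. By distance, with the minimum kept, the median was 0.13 at 2 to 5 Mb (11 of 14 genes above 0), 0.08 at 5 to 10 Mb (19 of 24), 0.03 at 10 to 20 Mb (23 of 40), -0.04 at 20 to 40 Mb (29 of 76) and -0.02 farther out (126 of 272). Within 2 Mb it was 0.18 (5 of 8), but 6 of these 8 genes are the members, and the other two, BMPER and DPY19L1, lay on opposite sides of 0. Chromosome 7 as a whole had a median of -0.00 over 435 genes, rank 12 of 23 chromosomes, whose medians ran from -0.10 to 0.10. These distances and the minimum were chosen after the values were seen, and the shift was not tested.

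The partners of the 6 proteins were described from lists of 45 genes, of which 39 reached 1 FPKM in either library. Of these, 0 passed 2-fold, 2 were higher and 1 was lower by over 25% of the lower value, and the intervals lay above 0 for 5 genes and below 0 for 5. Over all genes with at least 1 FPKM, 20.9% differed by over 25% and the intervals of 37.9% excluded 0. The median of the listed genes was -0.02, the same to 2 decimals as over all genes.

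All 7 other LSM genes of the rings were above 1 FPKM, with log2 ratios from -0.16 for LSM4 (95% interval -0.24 to -0.08) to 0.12 for LSM6 (-0.05 to 0.30), all below the 0.22 of LSM5. The interval of LSM5 (0.08 to 0.37) overlapped that of LSM6, and the difference between LSM5 and LSM6 was not tested. Of 11 genes for the BBSome, its GTPase ARL6 and its chaperonins, 10 reached 1 FPKM, from BBS12 at -0.24 (-0.67 to 0.16) to ARL6 at 0.34 (0.10 to 0.62). ARL6 recruits the BBSome to membranes, and it had 225 and 273 fragments. Among the nucleotidases, 5 of 7 reached 1 FPKM. NT5E, the ecto-enzyme CD73 that makes adenosine, had 55.8 FPKM in shControl and 70.8 in shFKBP9 (0.34, 0.29 to 0.40), and NT5C3B, the paralog of NT5C3A, had -0.04 (-0.15 to 0.07).

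In the list for KBTBD2, CUL3 was highest, at 0.16 (95% interval 0.04 to 0.28), and PIK3R1, the substrate, was at 0.07 (-0.08 to 0.23). The lowest of 5 expressed genes in that list was KLHL12, another CUL3 adaptor, at -0.21 (-0.34 to -0.08). The list for RP9 held 6 splicing genes and PIM1, a kinase that binds RP9, and PIM1 was highest, at 0.07 (-0.06 to 0.20). The lowest was PRPF8, the scaffold of the catalytic center of the spliceosome, with 37.9 and 28.4 FPKM (-0.42, -0.47 to -0.37). Of the 7 genes of the DENN domain family and RAB11A listed for AVL9, 5 reached 1 FPKM and ran from DENND5A at -0.10 (-0.17 to -0.03) to DENND6A at 0.08 (-0.13 to 0.30).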

How the data were processed

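RNA of SF-539 cells with the control vector (shControl) or the shRNA against FKBP9 (shFKBP9) was sequenced, 1 library each. The authors removed adapter, poly-N and low-quality reads, aligned to hg38 with HISAT2 2.0.5 and counted with featureCounts 1.5.0-p3, per the methods and the submitters' processing notes. The annotation release is not given in the sources used here. The authors deposited FPKM per gene. The library size behind it is 0.999 times the fragments on genes in shControl and 1.00 times in shFKBP9.

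Fragments were recovered by dividing FPKM times gene length by the smallest step of each library. One fragment on a gene of 1 kilobase is 0.0552 FPKM in shControl and 0.0582 in shFKBP9. Log2 ratios used 0.1 added to FPKM. No count model was fitted, since 1 library per condition has no replicate spread. Intervals of differences between log2 ratios are exact conditional intervals of the odds ratio. The file held 0 other columns of values per library.

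The 6 members and all lists were chosen with earlier results of these data known. Named genes are FKBP9, the members, their pseudogenes, genes within 2 Mb at 1 FPKM or more, and the highest and lowest expressed gene of each list. EGFR and NES, with the other marker genes, and CUL3, PIK3R1 and NT5C3AP1 were named besides. The alternatives were 1 or 0.01 added to FPKM, median scaling, TPM, other minimums and windows, sums with pseudogenes and other denominators. Fragment recovery, fold calls and intervals were tested on simulated data. Calculations ran in Python 3.11.15 (scipy 1.17.1, pandas 2.3.3, numpy 2.4.6), and matplotlib 3.10.9 drew the plots.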

Additional observations from a re-analysis of the deposited data

How the results depend on the processing

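All 26 values of the 6 genes under other additions to FPKM, median scaling, TPM and sums with pseudogenes stayed within the counting interval of the value reported, and 0 genes passed 2-fold under any of them. AVL9 alone changed sign, to 0.01 with median scaling. The median shift was 0.02 with median scaling and -0.02 with TPM. FKBP9 moved to -3.16 with 1 added to FPKM. The change of FKBP9 relative to its neighbors was -3.28 with their median as the denominator, -3.69 with NT5C3A, -3.15 with RP9 and -3.73 with BBS9. The count of other genes within 2 Mb past 2-fold, reported as 1, was 2 with TPM, 5 with no minimum, 3 in a window of 5 Mb, and 0 with 1 FPKM required in both libraries, in a window of 1 Mb, or with at least 4 fragments, a minimum added after the data were seen. The share of genes within 10 Mb above 0 was 80.4% with median scaling and 71.7% with TPM, against 50.5% and 43.2% of all genes. No paired analysis was possible because each condition has 1 library. Depth limits NT5C3A, RP9 and BBS9 most.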

Other observations

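GPNMB, a transmembrane glycoprotein gene 9.72 Mb upstream of FKBP9, had the highest log2 ratio of the 46 genes with at least 400 fragments within 10 Mb. It had 2.70 FPKM from 295 fragments in shControl and 5.37 from 557 in shFKBP9, a log2 ratio of 0.97 (95% interval 0.79 to 1.20). It was named after its values were seen. RP9 and BMPER, with log2 ratios of -0.26 and -0.23, were the lowest of the 46 genes.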
